A study of Mus musculus with 18 samples.

Results

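The Ikaros family of the mouse was described here through its 5 genes, Ikzf1 (Ikaros), Ikzf2 (Helios), Ikzf3 (Aiolos), Ikzf4 (Eos) and Ikzf5 (Pegasus). Their rows were found by Entrez identifier, which are 22778, 22779, 22780, 22781 and 67143 in that order. They are 5 of the 27179 genes in the deposited tables, and all 5 were among the 11735 genes that passed the filter on low counts. The cells were mouse CD4 T cells, taken as naive cells, stimulated through CD3 and CD28 by antibodies bound to the plate and kept in culture for 3.5 days. All of them carried Maf fl/fl, a floxed Maf gene, either without the CD4Cre transgene (labelled CD4Cre- Maf fl/fl) or with it (CD4Cre+ Maf fl/fl). CD4Cre expresses the Cre recombinase from regulatory sequence of the Cd4 gene and so deletes floxed sequence in T cells. Each genotype label was crossed with 3 treatments, named Tfh_A, Tfh_1 and Tfh_5, whose composition the sources used here do not give. The 18 libraries thus form 6 groups of 3, with replicate numbers 2, 4 and 5 under the Cre-negative label and 1, 3 and 6 under the Cre-positive label.

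Ikaros family proteins are zinc-finger transcription factors of lymphocytes. Fingers near the amino terminus bind DNA, and a pair of fingers at the carboxyl terminus joins family members into dimers, so that members present in the same cell can act together. The proteins bring corepressors such as the NuRD, Sin3 and CtBP complexes to their target genes, and Ikaros is required for lymphocyte development. Aiolos has been described in Th17 cells, where it silences Il2, and in Tfh cells. Helios and Eos are best known from regulatory T cells, and Pegasus is the most distant member.

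The coding sequence of the second finger of each protein is shown because it belongs to the DNA-binding region, which sets Pegasus apart from the other members. It lies on one exon in each gene, at chr11:11754024-11754086 (plus strand) in Ikzf1, chr1:69570581-69570643 (minus) in Ikzf2, chr11:98488940-98489002 (minus) in Ikzf3, chr10:128640229-128640291 (minus) in Ikzf4 and chr7:131392501-131392563 (minus) in Ikzf5, on GRCm38 with the GENCODE M21 annotation. Sequences run 5′ to 3′ on the coding strand, and capitals mark the codons of the paired cysteines and histidines that hold the zinc.
Ikzf1: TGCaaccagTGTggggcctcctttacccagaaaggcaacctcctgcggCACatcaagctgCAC
Ikzf2: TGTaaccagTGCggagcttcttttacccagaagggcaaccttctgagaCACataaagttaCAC
Ikzf3: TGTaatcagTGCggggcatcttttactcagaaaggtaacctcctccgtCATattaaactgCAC
Ikzf4: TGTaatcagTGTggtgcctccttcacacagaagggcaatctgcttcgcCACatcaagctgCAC
Ikzf5: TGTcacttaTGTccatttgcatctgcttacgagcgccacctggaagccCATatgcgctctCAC
Between Ikzf1, Ikzf2, Ikzf3 and Ikzf4, 48 to 53 of the 63 bases were identical, and every codon difference among them was silent, since all 21 encoded residues matched in each pair. Ikzf5 matched the others at 26 to 30 bases and at 5 residues. This is the finger through which lenalidomide and related drugs are known to bring Ikaros and Aiolos to the cereblon ubiquitin ligase in human cells. Likeness at the protein level did not extend to long shared RNA sequence. Of the 10 pairs of members, 9 had no stretch of 31 bases in common anywhere in their coding transcripts, and Ikzf2 and Ikzf4 shared 3 such stretches, all within the last 1000 bases.

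The genes lie at chr11:11684962-11772930 (Ikzf1), chr1:69531207-69687351 (Ikzf2), chr11:98464610-98546031 (Ikzf3), chr10:128630839-128669671 (Ikzf4) and chr7:131388649-131410518 (Ikzf5) on GRCm38.p6. Exons of Ikzf1 and Ikzf3 share no bases with those of the genes that overlap them. Ikzf5 shares 4652 exon bases with Pstk on the opposite strand and 183 with Gm44624. Ikzf2 shares 144 with Gm29114, and Ikzf4 shares 37 with Gm26876, both on the opposite strand. The sources used here do not say if the counting respected strand, and if it did not, reads of Pstk may be among those of Ikzf5, whose values are uncertain for that reason. Counts were fractional in 10 libraries for Ikzf5, in 8 for Ikzf2, in 5 for Ikzf1, in 1 for Ikzf3 and in 0 for Ikzf4.

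Total counts ran from 6424874 to 9236153 per library, and 3 libraries per group limit the precision of every mean below. CD4 T cell markers were present throughout: none of the 10 markers was at 0 in any library, and their summed level ran from 2356 to 4682 CPM (the counts-per-million unit, here scaled by the effective library size). It was lowest in Tfh_A under the Cre-negative label (2356 to 2417) and highest in Tfh_1 under the Cre-positive label (4231 to 4682), and its part in the results below was not tested. Markers of other cells were low in sum, at 0 to 5.05 CPM for 7 B cell genes, 0 to 10.4 for 9 myeloid and dendritic genes and 0 to 20.9 for 5 natural killer and innate lymphoid genes. Pax5, Ncr1 and Fcgr1 of these lists were at 0 in all 18 libraries, while Klrk1 had 648 counts, Itgax 181, Eomes 88.2, Cd14 61.5 and Blnk 54.2 over all libraries. Sums were 0 to 9.24 CPM for 3 gamma-delta T cell genes, 0 to 7.84 for 2 CD8 T cell genes and 0 to 4.995 for 4 erythroid genes. Of these, Trdc had 445.5 counts, Cd8b1 413.2 and Hba-a2 273.5 over all libraries. The natural killer sum was 6.95 to 20.9 CPM in the Tfh_A libraries and 0 to 6.70 in those of Tfh_1 and Tfh_5. The 8 regulatory T cell genes summed to 501.5 to 1036 CPM, with medians of 532 in Tfh_A and 1004 in Tfh_1 under the Cre-negative label, most of it from Tnfrsf18, Capg and Ctla4, which activated T cells also express. Foxp3, the defining factor of regulatory T cells, had 13.7 counts over all libraries and was at 0 in 12 of them. Of the same list, Nrp1 had 1556.5 counts, Lrrc32 743.5, Gpr83 606.3 and Itgae 210.2 over all libraries. The part of these markers in the results below was not tested. Maf itself had 0 to 15 counts in the 9 libraries labelled Cre-negative and 42 to 2627 in the 9 labelled Cre-positive. This goes against the genotype labels, under which the cells with CD4Cre would have lost the gene, although the sources used here do not say which part of Maf is floxed. The groups are therefore named by their labels throughout, and any direction between labels has to be read with the level of Maf in mind. Replicate 5 of Tfh_5 under the Cre-negative label stood apart, with the fewest genes above 0 (10242, against 10725 to 12673 in the others).

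Ikzf3 rose in Tfh_1 and Tfh_5 over Tfh_A under both genotype labels, and it was called in all 4 of these comparisons, which share the Tfh_A libraries within a label. Ikzf1 was called in 1 of them, where it fell. Ikzf2, Ikzf4 and Ikzf5 were called in none. A gene was called when its adjusted p in edgeR's quasi-likelihood test, corrected over all tested genes, was under 0.05. Under the Cre-negative label, 1 of the 5 members was called between Tfh_1 and Tfh_A, where 2.23% of all tested genes were called, and 2 were called between Tfh_5 and Tfh_A, where 5.08% were. With the Cre-positive label, 1 was called between Tfh_1 and Tfh_A (2.57% of all tested genes) and 1 between Tfh_5 and Tfh_A (5.39%). Between Tfh_5 and Tfh_1, 0 members were called under the Cre-negative label (0.554% of all genes) and 0 under the Cre-positive label (1.76%). At an unadjusted p under 0.05 these counts were 1 and 0, and DESeq2 called 0 in each. Between the genotype labels, 0 members were called in Tfh_A (0% of all tested genes), 0 in Tfh_1 (0.852%) and 0 in Tfh_5 (3.24%). At an unadjusted p under 0.05 these became 1, 0 and 1, and DESeq2 called Ikzf3 in Tfh_A and no member in the other treatments. In Tfh_A edgeR called 0 of all 11735 genes between the labels, with 606 at an unadjusted p under 0.05, and DESeq2 called 18.

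**Figure D1:**
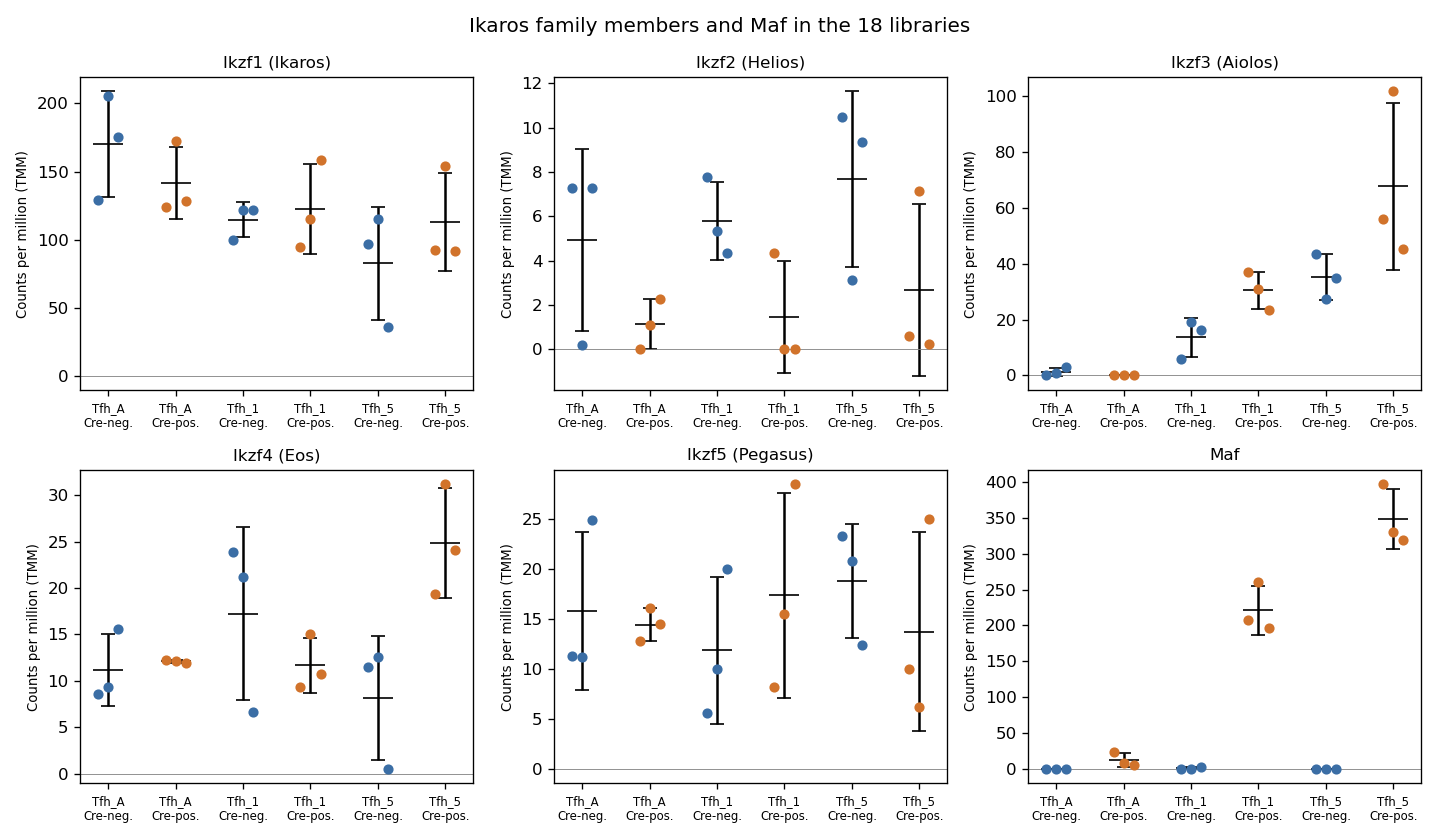
Level of each Ikaros family gene and of Maf, in CPM on a linear axis of its own in each panel, in the 6 groups of treatment and genotype label (blue, labelled Cre-negative; orange, labelled Cre-positive). Points are libraries and black marks the mean ± SD (n = 3). Ikzf3 is at or near 0 in Tfh_A and between 5.78 and 102 in Tfh_1 and Tfh_5, and Maf is near 0 in each Cre-negative group.

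Ikzf3 encodes Aiolos. In Tfh_A under the Cre-negative label it had 0, 8 and 29 counts in replicates 2, 4 and 5, and under the Cre-positive label it had 0 counts in all 3 libraries. Tfh_1 gave 35, 125 and 121 counts in replicates 2, 4 and 5 of the Cre-negative label and 297, 196 and 145 in replicates 1, 3 and 6 of the Cre-positive label. Tfh_5 gave 336, 191 and 209 counts under the Cre-negative label and 372, 784 and 350 under the Cre-positive label. No library of Tfh_1 or Tfh_5 came down to the level of any Tfh_A library, a separation whose share over all genes was not determined. As in any bulk sample, fewer cells with the transcript and less transcript per cell cannot be told apart.

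In group means, Ikzf3 stood at 1.24 ± 1.49 CPM (SD, n = 3) in Tfh_A, 13.7 ± 7.01 in Tfh_1 and 35.3 ± 8.18 in Tfh_5 under the Cre-negative label. In the libraries labelled Cre-positive it stood at 0 in Tfh_A, where 0 counts allow up to 0.126 CPM, at 30.5 ± 6.67 in Tfh_1 and at 67.7 ± 30.0 in Tfh_5. In order of the means, Tfh_5 labelled Cre-positive came first, with 45.2 to 102 CPM against 27.2 to 43.6 in Tfh_5 labelled Cre-negative. That group overlapped Tfh_1 labelled Cre-positive (23.6 to 36.9), which lay above Tfh_1 labelled Cre-negative (5.78 to 19.0). Next came Tfh_A labelled Cre-negative (0 to 2.90), and its replicate 2 was at 0 like the Tfh_A libraries labelled Cre-positive.

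Under the Cre-negative label the log2 fold change of Ikzf3 was 3.41 ± 0.69 (SE) from Tfh_A to Tfh_1, with an adjusted p of 0.00321. From Tfh_A to Tfh_5 it was 4.77 ± 0.72, with an adjusted p of 3.11e-05. From the summed counts these are ratios of 10.3 and 26.1. Replicate 5 of Tfh_A holds 29 of the 37 counts of its group, and without it the log2 fold changes were 4.92 and 6.28. A fit of these 6 libraries alone gave an adjusted p of 0.0885 for Tfh_1 against Tfh_A. Ikzf3 under the Cre-positive label was at least 246-fold higher in Tfh_1 than in Tfh_A (adjusted p = 2.81e-07) and at least 540.2-fold higher in Tfh_5 (adjusted p = 1.05e-08), taking 3 counts over the group as the floor. The 2 most abundant identifiers have no symbol in the reference tables. Their share of counts under the Cre-negative label was 25.1% ± 7.56 (SD, n = 3) in Tfh_A. It was 38.1% ± 4.38 in Tfh_1 and 40.5% ± 3.29 in Tfh_5 of that label. In the libraries labelled Cre-positive the share was 36.6% ± 9.38, 38.3% ± 0.66 and 39.8% ± 2.30 in the same order. With those identifiers removed before scaling, the log2 fold changes of Ikzf3 under the Cre-negative label were 3.42 and 4.78.

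Tfh_5 exceeded Tfh_1 in the mean level of Ikzf3 under both labels, and neither difference passed the threshold. The log2 fold change was 1.36 ± 0.61 under the Cre-negative label (adjusted p = 0.437) and 1.15 ± 0.61 under the Cre-positive label (adjusted p = 0.424). The library ranges did not overlap in either case, and how many of all genes separate in this way was not determined. By adjusted p, 0.554% and 1.76% of all genes were called in these comparisons.

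Between the genotype labels the group means of Ikzf3 differed in opposite directions. In Tfh_A it had 37 counts under the Cre-negative label and 0 under the Cre-positive label, which makes it at least 10.8-fold higher under the Cre-negative label, with an adjusted p of 0.0960 in edgeR and 0.0325 in DESeq2. The call turned on the libraries used: without replicate 2 of the Cre-negative group, which had 0 counts, the adjusted p was 0.00665, and without replicate 5, which holds 29 of the 37 counts, it was 1.0. Leaving out a Cre-positive library gave 0.273 to 0.567. In Tfh_1 and Tfh_5 its mean was higher under the Cre-positive label, where Maf was abundant, by log2 values of 1.15 ± 0.61 (adjusted p = 0.506) and 0.94 ± 0.60 (adjusted p = 0.497). The second was 0.52 without replicate 3 of the Cre-positive group. No libraries overlapped between the labels in either treatment, but neither difference was called. How many of all genes separate in this way was not determined. The genotype effect in Tfh_1 differed from that in Tfh_A (adjusted p = 0.0156, where 0.239% of all genes were called), and that in Tfh_5 differed from that in Tfh_A (adjusted p = 0.00848, 1.19% of all genes). Both rest on the few counts in Tfh_A, and without replicate 5 of Tfh_A labelled Cre-negative the adjusted p rose to 0.167 and 0.0706. The first was also lost without replicate 3 (0.0784) or replicate 6 (0.0737) of Tfh_A labelled Cre-positive. Tfh_5 and Tfh_1 differed in genotype effect by −0.21 ± 0.85 (adjusted p = 1.0), in a comparison in which 0.0597% of all genes and 0 members were called, with 1 member at an unadjusted p under 0.05 and 0 by DESeq2. Ikzf3 had 35 to 336 counts in the 6 Cre-negative libraries of Tfh_1 and Tfh_5, in which Maf had 0 to 15 counts. Any dependence of Ikzf3 on Maf was not tested.

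**Figure D2:**
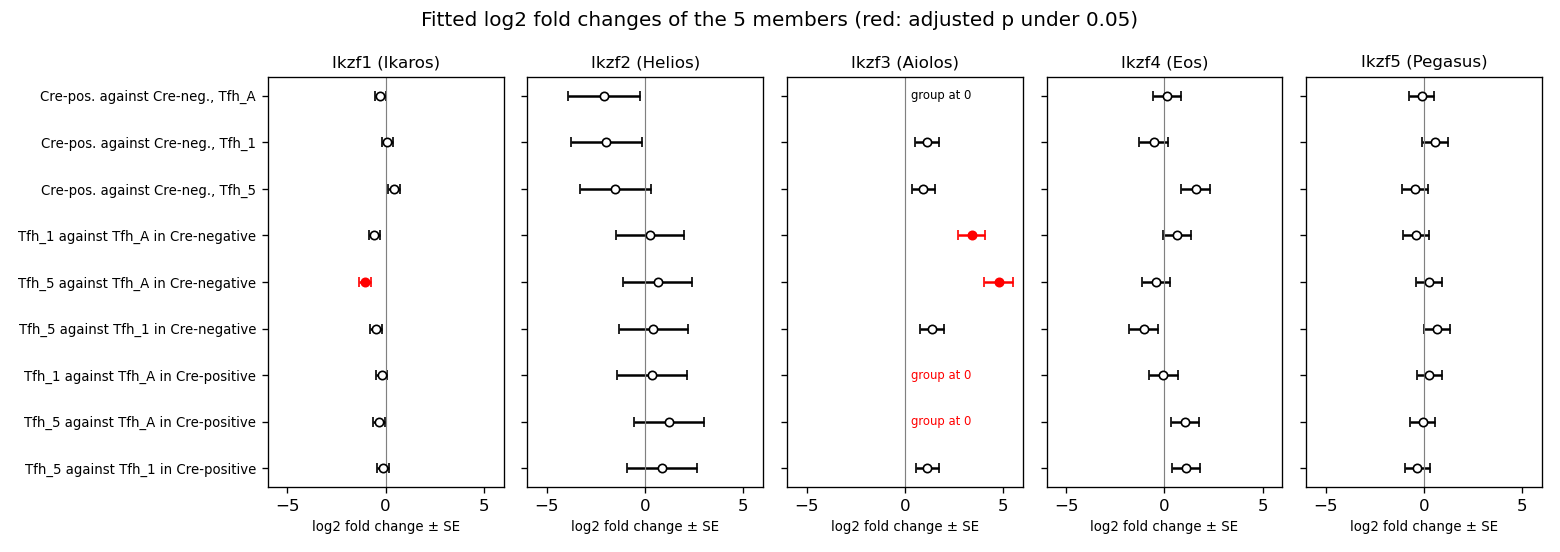
Fitted log2 fold changes ± SE of the 5 members in the 9 comparisons of a pair of groups, Cre-positive minus Cre-negative label in the upper 3 rows and first minus second named treatment below. Red marks an adjusted p under 0.05, and "group at 0" stands where Ikzf3 had 0 counts in a group, so that no size is drawn. The filled points are Ikzf3 at 3.41 and 4.77 and Ikzf1 at −1.04.

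Ikzf1 encodes Ikaros, the founding member of the family. It had 216 to 2013 counts per library. Under the Cre-negative label it was at 129, 206 and 175 CPM in replicates 2, 4 and 5 of Tfh_A, at 100, 122 and 122 in Tfh_1 and at 96.7, 115 and 36.1 in Tfh_5. Every Tfh_A library of this label lay above every Tfh_1 and Tfh_5 library, a separation whose share over all genes was not determined. In Cre-positive libraries by label it was at 124, 172 and 129 CPM in replicates 1, 3 and 6 of Tfh_A, at 94.5, 115 and 159 in Tfh_1 and at 92.5, 154 and 91.4 in Tfh_5, and the 3 treatments overlapped.

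The group means of Ikzf1 ran from 170.1 ± 38.8 CPM in Tfh_A labelled Cre-negative to 82.7 ± 41.3 in Tfh_5 of the same label, and each pair of neighbours in the order of means overlapped. From Tfh_A to Tfh_5 under the Cre-negative label Ikzf1 fell by 1.04 ± 0.30 on the log2 scale (adjusted p = 0.0339). This call rests on single libraries. Without replicate 5 of Tfh_5, the library with the fewest genes, the value was −0.68 (adjusted p = 0.254), and without replicate 4 or 5 of Tfh_A the adjusted p was 0.204 or 0.112. In a fit of these 6 libraries alone it was 0.166. From Tfh_A to Tfh_1 under this label the value was −0.57 ± 0.30 (adjusted p = 0.454). The values from Tfh_A under the Cre-positive label were −0.21 ± 0.30 in Tfh_1 and −0.33 ± 0.30 in Tfh_5, with adjusted p of 0.888 and 0.655. Between the labels Ikzf1 gave −0.26 ± 0.30 in Tfh_A and 0.45 ± 0.30 in Tfh_5 (adjusted p = 1.0 and 0.535). Single libraries carry these values: the first was −0.08 without replicate 4 of the Cre-negative group, and the second was 0.09 without replicate 5 of the Cre-negative group and 0.15 without replicate 3 of the Cre-positive group. The test of a difference between the labels' treatment responses gave 0.71 ± 0.42 for Tfh_5 against Tfh_A (adjusted p = 0.580).

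Ikzf2 encodes Helios, a factor found in many regulatory T cells. It was the least counted member, with 528.6 counts in all 18 libraries together and 0 in 3 of them. Under the Cre-negative label it had 54.3, 1.5 and 73 counts in Tfh_A, 47, 35 and 32.3 in Tfh_1 and 81.1, 22 and 56.5 in Tfh_5. With the Cre-positive label it had 0, 11.2 and 19 counts in Tfh_A, 35, 0 and 0 in Tfh_1 and 4.1, 54.6 and 2 in Tfh_5. The Cre-negative mean was the higher in each treatment, but the labels overlapped in each, through replicate 4 labelled Cre-negative in Tfh_A, replicate 1 labelled Cre-positive in Tfh_1 and replicate 3 labelled Cre-positive in Tfh_5. In CPM the means were 4.93 ± 4.09 against 1.13 ± 1.14 in Tfh_A, 5.80 ± 1.77 against 1.45 ± 2.51 in Tfh_1 and 7.67 ± 3.97 against 2.67 ± 3.88 in Tfh_5. The log2 differences, Cre-positive minus Cre-negative, were −2.10 ± 1.83, −1.97 ± 1.82 and −1.52 ± 1.79, with adjusted p of 1.0, 0.826 and 0.819. Each SE was near the size of its difference. Without replicate 3 of Tfh_5 labelled Cre-positive the third was −4.11 (adjusted p = 0.458), and without replicate 1 of Tfh_1 labelled Cre-positive that group had 0 counts, so that no size can be given (adjusted p = 0.364).

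Ikzf4 encodes Eos, a partner of Foxp3 in regulatory T cells. It had 3 to 240 counts per library, and no comparison called it. Tfh_5 labelled Cre-positive held its 3 libraries at 19.3, 31.2 and 24.2 CPM, above the 11.5, 12.5 and 0.502 CPM of Tfh_5 labelled Cre-negative, where replicate 5 had 3 counts. The share of all genes that separate in this way was not determined. The means were 24.9 ± 5.94 and 8.19 ± 6.68, and the log2 difference was 1.6 ± 0.73 (adjusted p = 0.298). These groups are the highest and the lowest in the order of means, and the other 4 groups lie between them at 11.2 to 17.2 CPM, each overlapping its neighbours. From Tfh_1 to Tfh_5 the log2 fold change of Ikzf4 was −1.07 ± 0.72 under the Cre-negative label and 1.09 ± 0.72 under the Cre-positive label (adjusted p = 0.651 and 0.572). From Tfh_A to Tfh_5 under the Cre-positive label it was 1.04 ± 0.72 (adjusted p = 0.492). Without replicate 5 of Tfh_5 labelled Cre-negative, the genotype difference in Tfh_5 was 1.05 (adjusted p = 0.570), and the change from Tfh_1 to Tfh_5 under this label was −0.52 (adjusted p = 0.934).

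Ikzf5 encodes Pegasus. It had 33.5 to 250 counts per library, with group means of 11.9 to 18.8 CPM. All neighbours in the order of means overlapped, no comparison called it, and its smallest adjusted p over the 12 comparisons was 0.834.

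The 3 genes whose levels followed Ikzf3 most closely over the 18 libraries were Tmem176b, with a Pearson coefficient of 0.946 on log2(CPM + 0.5), Prdx6 (0.942) and Pdpn (0.925). They were taken from 6365 genes with a mean of at least 10 CPM. The libraries of a group share their treatment, so these coefficients describe likeness over 6 groups more than over 18 independent points. Tmem176b, a membrane protein of myeloid and Th17 cells, had 0.874 ± 0.810 CPM in Tfh_A labelled Cre-negative and 0 in Tfh_A labelled Cre-positive. It reached 16.0 ± 3.29 in Tfh_1 under both labels, and 87.4 ± 30.5 and 47.2 ± 2.68 in Tfh_5. Pdpn, the glycoprotein podoplanin that some Th17 cells carry, went from 0.568 ± 0.813 CPM in Tfh_A to 303.3 ± 18.1 in Tfh_5 under the Cre-negative label, and from 1.48 ± 2.56 to 186.4 ± 21.1 under the Cre-positive label. Prdx6, a peroxidase, started from 117 ± 37.6 CPM in Tfh_A under the Cre-negative label and stood at 493.6 ± 27.9 in Tfh_5.

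These 3 genes shared with Ikzf3 the step from Tfh_A to the other treatments, which their choice by correlation with Ikzf3 favoured. Between the labels in Tfh_5 their means were lower under the Cre-positive label, where that of Ikzf3 was higher. Leaving out replicate 5 of Tfh_5 labelled Cre-negative gave coefficients of 0.952, 0.947 and 0.922 for the 3 genes.

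**Figure D3:**
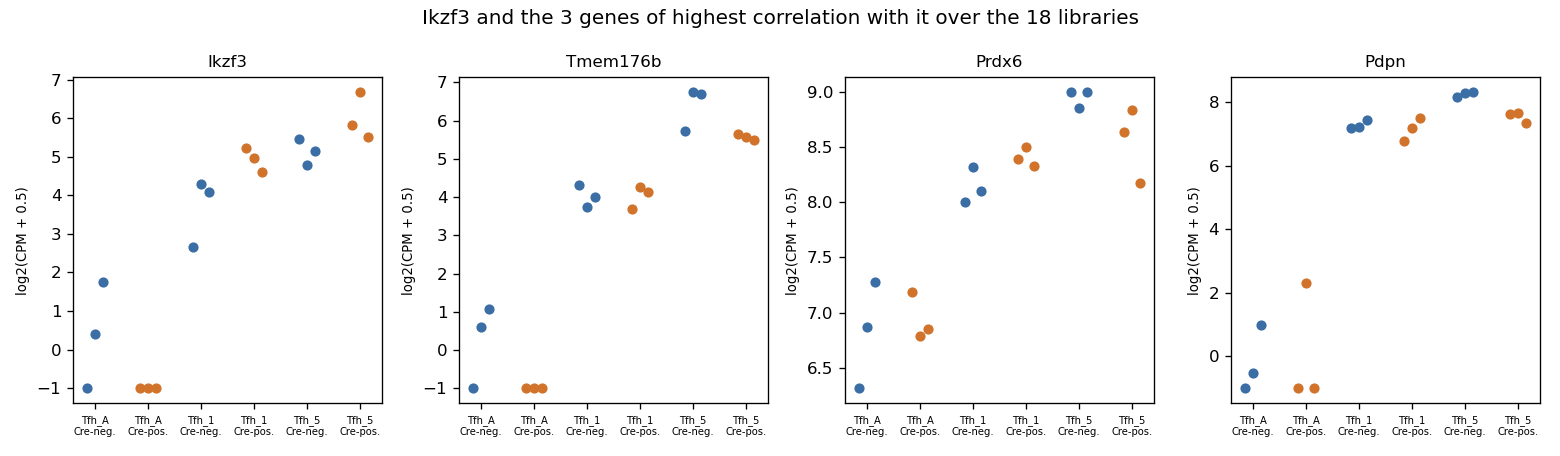
Levels of Ikzf3 and of the 3 genes most like it, as log2(CPM + 0.5) in each library (blue, labelled Cre-negative; orange, labelled Cre-positive). All 4 genes are lowest in Tfh_A; in Tfh_5 the Ikzf3 points labelled Cre-positive lie above those labelled Cre-negative, and those of Tmem176b and Pdpn lie below.

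For the other members the nearest genes were less alike. Ikzf1 was followed by Helz (0.844), Heatr3 (0.842) and Ctc1 (0.828), and Ikzf4 by Scnm1 (0.871), Itga6 (0.867) and Klc4 (0.861). Both sets rest on replicate 5 of Tfh_5 labelled Cre-negative, in which Helz, Heatr3 and Itga6 were at 0. Without that library the coefficients were 0.531, 0.612 and 0.528 for the genes of Ikzf1 and 0.684, 0.428 and 0.521 for those of Ikzf4. Ikzf2 was followed by Eif5 (0.712), Tmem199 (0.708) and Togaram1 (0.708), and Ikzf5 by Ppat (0.747), Naa35 (0.745) and Itpr2 (0.702).

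Partners of the family were called in few comparisons. Of the NuRD complex, the nucleosome remodelling and deacetylase complex that Ikaros proteins recruit, 13 of 14 listed genes were tested. In Tfh_5 against Tfh_A under the Cre-negative label, where 5.08% of all tested genes were called, 0 NuRD genes rose and 2 fell. The list median was −0.08 on the log2 scale beside −0.09 for all genes. The genes that fell were Rbbp7, a histone chaperone (−1.25 ± 0.32, adjusted p = 0.0124), and Mbd2, which binds methylated DNA (−1.49 ± 0.40, adjusted p = 0.0196). In the libraries labelled Cre-positive Chd3, a remodelling ATPase of the complex, rose in this comparison by 1.50 ± 0.38 (adjusted p = 0.0104), and Cdk2ap1 fell in Tfh_1 against Tfh_A by 1.02 ± 0.28 (adjusted p = 0.0385). Of all tested genes, 5.39% and 2.57% were called in these comparisons, in that order. The other 6 comparisons of a pair of groups called 0 NuRD genes and 0% to 3.24% of all tested genes. Each of these 4 calls depended on single libraries. Rbbp7 was lost without replicate 4 of Tfh_A (adjusted p = 0.0863) or 2 of Tfh_5 (0.0784), Mbd2 without replicate 4 of Tfh_A (0.164) or 4 (0.114) or 5 (0.0739) of Tfh_5, and Chd3 without replicate 6 of Tfh_A (0.102). Cdk2ap1 was lost whichever of the 6 libraries was left out, at adjusted p of 0.0518 to 0.180.

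Of the Sin3 and CtBP corepressors, a second set of silencing partners, all 13 listed genes were tested and edgeR called 0 in each of the 9 comparisons of a pair of groups. At an unadjusted p under 0.05 it gave 0 or 1 gene per comparison, and DESeq2 called 0. Of the cereblon ubiquitin ligase, which degrades Ikaros and Aiolos under lenalidomide in human cells, all 7 genes were tested and 0 were called in each of the 9, with 0 to 2 at an unadjusted p under 0.05 and 0 by DESeq2. At 0% to 5.39% of all genes called per comparison, counts of 0 in lists this short are near the background and are no result about these genes.

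Among 21 genes whose products are reported to feed into family genes in T cells, all were tested and some were called. Under the Cre-negative label 3 rose and 2 fell in Tfh_1 against Tfh_A (list median 0.31 beside −0.04 for all genes), and 4 rose and 1 fell in Tfh_5 against Tfh_A (0.36 beside −0.09). With the Cre-positive label 1 rose and 0 fell in Tfh_1 against Tfh_A (0.18 beside −0.06). In Tfh_5 against Tfh_A of that label 2 rose and 1 fell (0.13 beside −0.05). Of all tested genes, 2.23% and 5.08% were called under the Cre-negative label, and 2.57% and 5.39% under the Cre-positive label. With each library left out in turn, the Cre-negative counts were 2 to 3 and 0 to 1 for Tfh_1, and 3 to 5 and 1 to 2 for Tfh_5. Ahr, the aryl hydrocarbon receptor, has been reported to induce Ikzf3 in Th17 cells, and it rose in all 4. It stood at 5.74 ± 3.95 CPM in Tfh_A, 25.1 ± 5.48 in Tfh_1 and 38.8 ± 8.42 in Tfh_5 under the Cre-negative label. The libraries labelled Cre-positive had means of 6.13 ± 4.44, 38.7 ± 11.7 and 38.3 ± 6.62. Its log2 fold changes against Tfh_A were 2.12 ± 0.53 and 2.75 ± 0.54 under the Cre-negative label (adjusted p = 0.0207 and 0.000930) and 2.64 ± 0.54 and 2.62 ± 0.54 under the Cre-positive label (0.00305 and 0.00140). The first of these was lost without replicate 2 (adjusted p = 0.132) or 4 (0.127) of Tfh_A, or without replicate 2 (0.0647) or 4 (0.0934) of Tfh_1.

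Il2ra, the subunit that gives the IL-2 receptor its high affinity, rose from 317 ± 25.1 CPM in Tfh_A to 587.8 ± 56.2 in Tfh_1 and 764.3 ± 115 in Tfh_5 under the Cre-negative label (adjusted p = 0.00265 and 7.88e-06). With the Cre-positive label it was at 317 ± 31.1, 249.7 ± 35.9 and 239.3 ± 23.8 CPM. It was thus lower under the Cre-positive label by log2 values of −1.24 ± 0.18 in Tfh_1 (adjusted p = 9.16e-05) and −1.68 ± 0.18 in Tfh_5 (9.97e-08). In Tfh_A the log2 difference of Il2ra between the labels was 0.002 ± 0.178. Stat4, a signal transducer of IL-12, fell under the Cre-negative label from 59.3 ± 19.4 CPM in Tfh_A to 2.28 ± 3.02 in Tfh_5 (adjusted p = 2.84e-05). It was higher under the Cre-positive label in Tfh_5, at 19.1 ± 7.67 CPM (adjusted p = 0.00552), a call that a fit of these 6 libraries alone did not give (0.348). Rbpj, the DNA-binding partner of Notch, rose in Tfh_1 against Tfh_A under the Cre-negative label by 1.02 ± 0.22 (adjusted p = 0.00576), and this was lost without replicate 5 of Tfh_A (0.0864). Between the labels this list had 0 calls in Tfh_A (0% of all tested genes), 1 in Tfh_1 (0.852%) and 2 in Tfh_5 (3.24%). The other listed genes called against Tfh_A, named after their values were seen, were Il2rb, Il2rg and Stat5a.

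Reported targets of the family in T cells, of which 17 of 24 were tested, were called in both directions. Under the Cre-negative label 4 rose and 0 fell in Tfh_1 against Tfh_A (list median 0.09 beside −0.04 for all genes). In Tfh_5 against Tfh_A of this label 6 rose and 3 fell (−1.19 beside −0.09). With the Cre-positive label these counts were 1 and 1 (0.48 beside −0.06), and 3 and 1 (−0.12 beside −0.05). Of all tested genes, 2.23% and 5.08% were called under the Cre-negative label, and 2.57% and 5.39% under the Cre-positive label. With each library left out, 4 to 7 rose and 2 to 3 fell in Tfh_5 under the Cre-negative label, and 1 to 3 rose and 0 to 1 fell under the Cre-positive label. Il17a, the signature cytokine of Th17 cells, rose in all 4, from 6.20 ± 1.30 CPM in Tfh_A to 111 ± 36.3 in Tfh_1 and 165 ± 38.6 in Tfh_5 under the Cre-negative label. In the libraries labelled Cre-positive it went from 7.64 ± 2.20 to 113 ± 31.8 and 147 ± 15.9 CPM. The log2 fold changes lay between 3.88 ± 0.32 and 4.73 ± 0.33, with adjusted p of at most 1.68e-10. Il7r, the IL-7 receptor, rose under the Cre-negative label from 42.6 ± 3.03 CPM in Tfh_A to 142 ± 26.4 in Tfh_1 and 184 ± 76.8 in Tfh_5 (adjusted p = 0.00105 and 3.11e-05). In the other label its change from Tfh_A to Tfh_5 was 0.18 ± 0.32 (adjusted p = 0.873). Cd4 fell under the Cre-negative label from 160.3 ± 22.7 CPM in Tfh_A to 57.4 ± 7.80 in Tfh_5 (adjusted p = 2.84e-05). Under the Cre-positive label its change was −0.43 ± 0.22 on the log2 scale (adjusted p = 0.307). Between the labels 0 targets were called in Tfh_A, 1 in Tfh_1 (Il2ra, lower under the Cre-positive label) and 4 in Tfh_5. The shares over all tested genes were 0%, 0.852% and 3.24%. In Tfh_5 Socs1 and Cd4 were higher and Il7r and Il2ra lower under the Cre-positive label. Il7r was lost there without replicate 2 labelled Cre-negative (adjusted p = 0.116) or 6 labelled Cre-positive (0.0629), and a fit of these 6 libraries alone gave 0.0712 for Il7r and 0.0704 for Cd4. Il2ra is on this list too. The other targets called in these 4 comparisons, named after their values were seen, were Il10, Il17f, Il2rb, Socs1, Satb1 and Tbx21. Ifng, Bcl6, Prdm1, Foxp3, Il4, Dtx1 and Cd8a did not pass the filter.

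Of other zinc-finger and lineage factors of T cells, 20 of 23 listed genes were tested. The list was chosen with earlier results of these data known, so it is no background for the family. In Tfh_5, 5 genes were higher and 3 lower under the Cre-positive label, the one with Maf (list median 0.65 beside 0.0 for all genes). In Tfh_1 1 was higher and 1 lower, and in Tfh_A 0 were called. Of all tested genes, 3.24% were called between the labels in Tfh_5, 0.852% in Tfh_1 and 0% in Tfh_A. Klf2, a factor of quiescent T cells, had 0.0475 ± 0.0823 CPM in Tfh_5 labelled Cre-negative and 47.8 ± 14.7 in Tfh_5 labelled Cre-positive (adjusted p = 9.97e-08). In Tfh_1 it stood at 1.50 ± 1.81 and 50.0 ± 10.9 CPM (adjusted p = 9.63e-05). Zbtb32, a repressor of the BTB zinc-finger group, was lower under the Cre-positive label by log2 values of −2.86 ± 0.54 in Tfh_1 (adjusted p = 0.00267) and −3.12 ± 0.55 in Tfh_5 (0.000408). Klf6 was lower there in Tfh_5 by −1.44 ± 0.26 (adjusted p = 0.000555), which a fit of these 6 libraries alone did not call (0.0599). Runx3, a Runt family factor, fell from Tfh_A to Tfh_5 under the Cre-positive label by 1.59 ± 0.24 on the log2 scale (adjusted p = 1.7e-05).

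**Figure D4:**
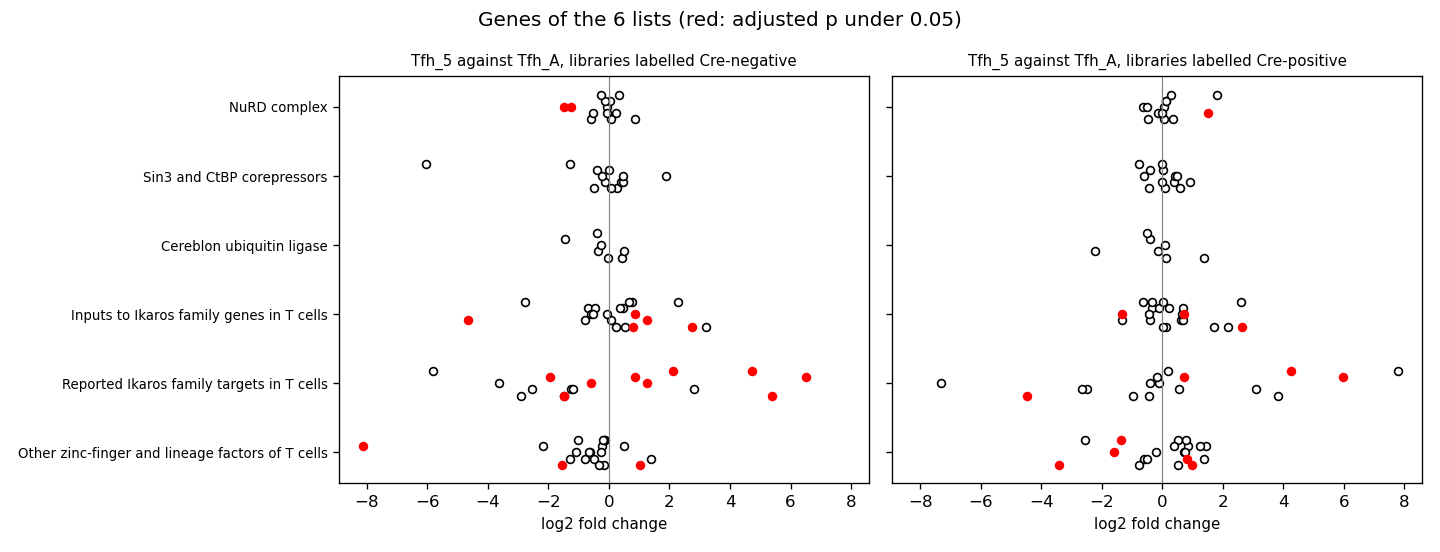
Log2 fold changes from Tfh_A to Tfh_5 of the tested genes of 6 lists, in libraries labelled Cre-negative (left) and Cre-positive (right), 1 point per gene and red where the adjusted p was under 0.05. Vertical offsets within a list only separate the points. The Sin3 and CtBP list and the cereblon list have 0 red points, the leftmost red point on the left is Klf2, which has 1 count in Tfh_5 so that its size is uncertain, and the targets have 9 on the left and 4 on the right.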

How the data were processed

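Expected counts per gene, partly fractional, were deposited by the authors, who used STAR 2.7.2b and featureCounts 1.6.4 on mm10, per the submitters' processing notes. The sources used here do not say how reads shared by genes were divided, or if strand was respected. The planned tests assumed whole counts, so values were rounded. Libraries came from 50 ng of RNA with a Lexogen 3′ kit, per the labels' protocols. Such libraries read transcript ends, so levels were not compared between genes. Symbols came from RefSeq on GRCm38.p6 (25275 of 27179 identifiers).

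1 fit of all 18 libraries in edgeR 4.0.16 (R 4.3.3; TMM factors, filterByExpr, robust quasi-likelihood, 1 mean per group) gave 12 comparisons of 11735 genes, adjusted by Benjamini-Hochberg with a threshold of 0.05. The SE is the log2 fold change over the square root of F. CPM are rounded counts over the effective library size (TMM factors 0.830 to 1.389). Folds against a group at 0 use 3 counts over the group as a floor, and intervals and floors cover counting error only. Spearman coefficients of replicate pairs ran from 0.858 to 0.909, and 0 pairs were identical. No label says whether replicates were separate animals, so the p-values speak only of spread among these samples, and that spread may be technical.

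The members and lists were chosen with earlier results of these data known. Named genes were the members, Maf, up to 4 genes per list by smallest adjusted p among those called, and per member the 3 genes with the highest Pearson coefficient. Alternatives were DESeq2 1.42.0, its size factors, no filter, the compared libraries alone, removal of the 2 most abundant identifiers, a replicate block and leaving out each library.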

Additional observations from a re-analysis of the deposited data

Results flagged for a closer look

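The difference between the genotype effects on Ikzf3 in Tfh_1 and in Tfh_A passed the threshold in edgeR (adjusted p = 0.0156), as did that between Tfh_5 and Tfh_A (adjusted p = 0.00848). In Tfh_A, Ikzf3 had 37 counts in libraries labelled Cre-negative and 0 in those labelled Cre-positive, while in Tfh_1 it had 281 against 638 and in Tfh_5 736 against 1506. Both differences rest on the Tfh_A counts, of which replicate 5 labelled Cre-negative holds 29, and neither passed the threshold without that library.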

How the results depend on the processing

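The number of members called changed as follows. Between the labels in Tfh_A it was 1 in place of 0 with DESeq2 and with no count filter, Ikzf3 in each case, and 0 to 1 with each library left out. In fits of the compared libraries alone it was 0 in place of 1 for Tfh_1 against Tfh_A labelled Cre-negative, 1 in place of 2 for Tfh_5 against Tfh_A of that label, and 0 in place of 1 for the difference of genotype effects in Tfh_1 and Tfh_A. With each library left out it was 1 to 2 for Tfh_5 against Tfh_A labelled Cre-negative, and 0 to 1 for each of the differences of genotype effects against Tfh_A. For the difference between Tfh_5 and Tfh_A DESeq2 gave Ikzf3 no adjusted p, and so no count. The difference of genotype effects on Ikzf3 between Tfh_5 and Tfh_1, −0.21, ran from −0.63 to 0.16 with each library left out, and became 0.16 without replicate 2 of Tfh_1 labelled Cre-negative and 0.02 without replicate 6 of Tfh_5 labelled Cre-positive (adjusted p = 1.0 in each). The cause of these changes was not tested. Over all 5 members and 12 comparisons, 787 alternative log2 fold changes gave 735 of the same direction and side of the threshold, 10 that lost a call, 3 that gained one and 39 of the opposite sign, 0 of them for a called value. Of 480 alternatives for the 41 calls of named list genes, added after seeing the data, 54 lost the call and 0 changed sign.

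Whether the replicate numbers pair the libraries could not be told from the counts, since deviations from means of 3 libraries are noisy. Deviations of same-numbered libraries correlated at −0.037 to 0.077 over 18 pairs, 8 of which were the best match of their group. With the replicate number as a block, the members called were unchanged in number at 1, 2, 0, 1, 1 and 0 in the treatment comparisons, and the Ikzf3 values for Tfh_1 and Tfh_5 against Tfh_A labelled Cre-negative were 3.65 and 5.27. The block raised the genes called for the difference between Tfh_5 and Tfh_1 from 7 to 16.

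Counts over all genes moved by more than 1.5 times in many alternatives. DESeq2 called 438 in place of 262 genes (Tfh_1 against Tfh_A) and 211 in place of 65 (Tfh_5 against Tfh_1) under the Cre-negative label, and 588 for 302, 961 for 633 and 404 for 206 under the Cre-positive label. Between the labels it called 18 for 0, 263 for 100 and 595 for 380, and for the differences 63 for 28, 255 for 140 and 52 for 7. With no filter the counts were 232 for 65, 314 for 206, 23 for 0, 168 for 100, 61 for 28, 235 for 140 and 45 for 7, and with DESeq2 size factors 1 for 0. In the compared libraries alone they were 566 for 262, 28 for 65, 115 for 206, 80 for 380, 64 for 28, 88 for 140 and 3 for 7. With each library left out the lowest were 129 for 262, 360 for 596, 25 for 65, 170 for 302, 51 for 100, 18 for 28 and 81 for 140, and the highest were 4 for 0 and 21 for 7. Depth limits Ikzf2 most, with 0 to 81.1 counts per library.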
